A study of Homo sapiens with 16 samples.

Results

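This account covers a set of contacts between chromosomes in K562 cells: those that join the distal long arm of chromosome 13 (from 80 Mb of build hg19 nearly to the chromosome's end) with 9q34 (chromosome 9 from 130 Mb nearly to its end) or with 22q11 (chromosome 22, 16 to 26 Mb). The members are all pairs of 20 kb bins across these windows, 1837500 pairs of the 11385132068 pairs of bins that lie on different chromosomes. Of these, 962500 pairs lie between chromosome 13 and 9q34 and 875000 between chromosome 13 and 22q11. The windows were set by position, with no measured value in the rule, but were chosen with earlier results of these data known. K562 is an established human line grown from a chronic myeloid leukaemia in blast crisis, and the labels name no treatment other than the digestion. Hi-C was run in nuclei fixed with 2% formaldehyde and cut with the restriction enzyme HindIII for 0.25, 1, 3 or 12 h, with 2 replicates at each time. Nothing in the labels says that the replicates were separate cultures, so the p-values measure only the spread between these libraries. The 8 libraries of the second sequencing run, binned at 20 kb, carry the results, and the first run, binned at 50 kb, is a check. The titles give both runs the same times and replicate numbers, so the first was taken to hold the same libraries and is not treated as independent.

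Hi-C ligates DNA ends that lie near each other, so contact frequency falls with distance along a chromosome and is low between chromosomes. Where pieces of different chromosomes have been joined, their contacts rise to the level of a single chromosome and stop abruptly at the breakpoints, and the pair of ends that are joined to each other shows the most contacts. The Philadelphia translocation joins BCR at 22q11 to ABL1 at 9q34 and yields the BCR-ABL1 kinase that drives chronic myeloid leukaemia. K562 is known to carry amplified copies of this fusion. The band 13q31 is known for MIR17HG, the host gene of a microRNA cluster, and for the glypican gene GPC5. No hg19 gene annotation was used here, so edges are given by position and not by gene.

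The second-run libraries held between 62777251 and 176412222 contacts. Of these, 9.65% to 12.0% joined different chromosomes, and this share was higher at longer digestion. Depth was also higher at longer digestion, and rose at every time within each replicate number. Replicates 1 and 2 held 114338328 and 62777251 contacts at 0.25 h, and 176412222 and 153465906 at 12 h. The 9q34 and 22q11 pieces that carry the Philadelphia junction contacted each other 170 to 207 times as often as unjoined pairs of these windows in the 8 libraries, as a check of the cell line. Throughout, contacts over expected means the contacts of a pair divided by the product of the contacts that each side makes with chromosomes other than 9, 13 and 22. It is scaled so that pairs of bins outside every joined segment stand at 1. The level of 1 rested on 2909 contacts in all 8 libraries together.

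Chromosome 13 contributed 5 separate segments to these contacts, and both partners picked out the same 5. Lines were found with each partner alone and then placed on contacts with both partners added, so identical final positions were given by the method. Before that placing, the lines with 9q34 and 22q11 lay at 90380000 and 90400000 and at 92500000 and 92480000 around segment 2. The other lines lay at the same bin with both. Segment 1 ran from 81.08 to 81.48 Mb, segment 2 from 90.42 to 92.48 Mb, segment 3 from 92.94 to 93.36 Mb, segment 4 from 93.84 to 94.04 Mb and segment 5 from 108.50 to 108.66 Mb. Their lengths were 400, 2060, 420, 200 and 160 kb. The stretches between them were 8940, 460, 480 and 14460 kb long. The segments hold 0.471% of the bin pairs between chromosome 13 and 9q34, together with the 9q34 segment, and 97.5% of the contacts there (225386 of 231069). With 22q11 they hold 6.48% of the bin pairs and 97.3% of the contacts (316123 of 325044).

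The edges were sharp to 1 bin. At the left edge of segment 5, the bin chr13:108500001-108520000 had 2919 contacts with the 9q34 window in the 8 libraries together, and the bin before it had 2. At its right edge, chr13:108640001-108660000 had 4242 and the next bin 2. The left edge of segment 3 stepped from 0 to 2796 contacts, in chr13:92940001-92960000. The left edge of segment 4 stepped from 0 to 1247, in chr13:93840001-93860000. The shallowest bin just inside an edge was the first of segment 2, chr13:90420001-90440000, with 132 contacts against 1 in the bin before. Averaged over 5 bins on each side, the level changed from 48.9-fold at the right edge of segment 2 to 372-fold at the right edge of segment 5 with 9q34, and from 40.1-fold to 114-fold with 22q11. After each line was moved, by up to 3 bins, to the largest step between neighbouring bins, each of the 10 edges fell between the same 2 bins in all 8 libraries. This move used contacts with 9q34 and 22q11 added together, and in each library it searched only within 3 bins of the line from all libraries. Before that move, the line lay within 1 bin in 2 of 8 libraries at the left edge of segment 2 with 9q34, in 4 of 8 at the left edge of segment 5 with 22q11, and in 6 to 8 at the others.

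**Figure D1:**
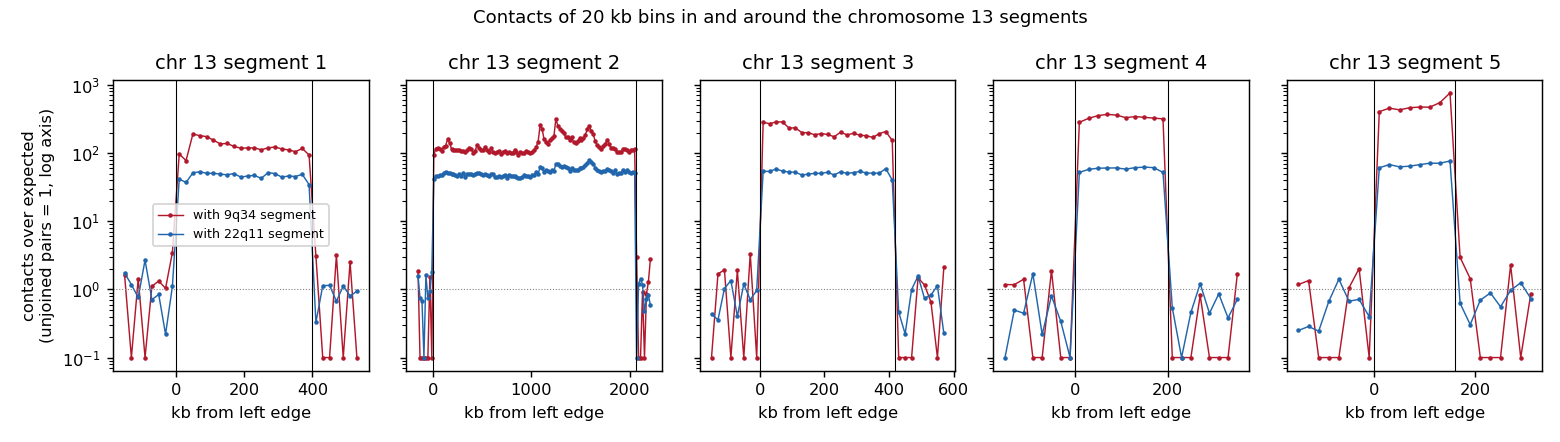
Contacts over expected (vertical log axis, unjoined pairs at 1) of 20 kb bins in and around each chromosome 13 segment, by distance in kb from the segment's left edge, in the sum of 8 libraries. Red points are contacts with the 9q34 segment and blue points contacts with the 22q11 segment, vertical lines mark the edges, and values under 0.1 are drawn at 0.1. Inside the edges, red bins lie between 77.7 and 761 and blue bins between 34.5 and 77.9, and the first bins outside stand at 0 to 3.47 (red) and 0 to 1.81 (blue).

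The partner edges were as sharp on chromosome 9. Contacts with chromosome 13 began at 133.60 Mb, where they stepped from 6 to 6159 per bin (chr9:133600001-133620000), and ended at 134.16 Mb, where they stepped from 10486 to 8. This bounds a 9q34 segment of 560 kb. On chromosome 22 the contacts ended at 23.64 Mb, where 1523 contacts in chr22:23620001-23640000 gave way to 1 in the next bin. The sharpest bin was the same in 7 of 8 libraries at this edge and in 8 of 8 at both edges of the 9q34 segment. Before the move to the sharpest bin, the lines lay within 1 bin in 4 of 8 libraries at 23.64 Mb, 5 of 8 at 133.60 Mb and 7 of 8 at 134.16 Mb. Going toward the centromere they ran to 16.64 Mb, beside a stretch of bins without enough contacts, with a step of 4.17-fold there, and 1 of 8 libraries put that line at the same bin. Before the move to the sharpest bin, the line lay within 1 bin in 8 of 8 libraries. The last usable bin to its left was chr22:16440001-16460000 and the bins between had too few contacts, so the position of the left end was not resolved. Over the 5 usable bins left of this line, contacts with the chromosome 13 window stood at 0.0472 per contact with chromosomes other than 9, 13 and 22. Over the 5 beyond 23.64 Mb they stood at 0.00997, so an end at 16.64 Mb was not shown.

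All 5 segments, and both partners, had far more contacts with the rest of the genome than the sequence around them. Segment 4 made 12.3 times as many contacts per bin with chromosomes other than 9, 13 and 22 as its 50 nearest usable bins outside the segments (11.6 to 12.7 in the 8 libraries). Segments 2 and 3 made 10.5 and 10.4 times as many, segment 1 made 8.97 times and segment 5 made 8.61 times. The 9q34 segment stood at 8.88 times its flanks. The 22q11 segment, which spans 7000 kb, stood at 5.40 times. Its bins 5000 to 6000 kb from the right edge made 2113 such contacts each, against 10218 in the last 500 kb. In contacts recovered from Hi-C, more copies of a piece and better recovery of its fragments cannot be told apart. Dividing by these contacts keeps either from raising the values given here as contacts over expected. The division can also lower those values, and by unequal amounts, since these contacts differ between segments and from their flanks.

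Between the 5 segments and 9q34, contacts over expected averaged 179 (166 to 189 in the 8 libraries). With the 22q11 segment they averaged 53.2 (50.04 to 62.5). Pairs with only one side in a segment were far lower. The chromosome 13 segments stood at 0.606 with chromosome 9 outside its segment and at 2.25 with chromosome 22 outside its segment. The rest of chromosome 13 stood at 1.32 with the 9q34 segment and at 1.14 with the 22q11 segment. By the quadrant rule, all 40 combinations of a chromosome 13 edge with a partner edge were called. Each had at least 2 times more contacts over expected inside both segments than in any other quadrant. The segments were drawn from steps in these same contacts, so this outcome follows from how they were drawn and is no separate evidence of joining. The rule does not say which ends meet, and it counts the left end of 22q11, whose position was not resolved.

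The segments differed most in their contacts with 9q34. Segment 5 stood highest at 490 (450 to 533 in the 8 libraries), followed by segment 4 at 340 (318 to 358) and segment 3 at 210 (194 to 224). Segments 2 and 1 were lowest at 132 (121.5 to 141.4) and 129 (120.0 to 140.7), and their ranges overlapped. The ranges of segments 5, 4 and 3 overlapped neither each other nor those of segments 2 and 1. Contacts with 22q11 followed a flatter course, from 67.6 (61.6 to 77.2) in segment 5 and 59.3 (55.6 to 67.6) in segment 4 to 46.9 (43.5 to 56.5) in segment 1. Segments 2 and 3 lay between, at 52.7 and 51.7, and the ranges of neighbours in this order overlapped.

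Within the chromosome 13 segments, contacts with 9q34 were not level. In segment 5 the right 60 kb stood 1.30 times above the left 60 kb (1.27 to 1.37 in the 8 libraries), from 436 to 568, and its last bin reached 761. In segment 3 the right 60 kb stood at 0.700 of the left (0.596 to 0.784) and in segment 1 at 0.731 (0.659 to 0.832). The left 60 kb of segment 1 mix different levels: its first 40 kb stood at 93.3 and the next 60 kb at 181, against 107 in its last 60 kb. Segment 4 showed no such slope (0.996, 0.936 to 1.05), and the outer ends of segment 2 stood at 0.983 of each other (0.837 to 1.23). With 22q11 the right end of segment 5 was also the higher (1.12, 1.08 to 1.19), while the range over libraries took in 1 for segments 1, 2, 3 and 4.

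Along the 9q34 segment, contacts with every chromosome 13 segment were highest toward its right end, the end away from the Philadelphia junction. The rise was steepest for segment 5, from 149 in the first 60 kb to 2049 in the last 60 kb, or 13.8-fold (11.7 to 17.1 in the 8 libraries). It was 9.22-fold (7.19 to 10.4) for segment 4 and 7.09-fold (5.54 to 8.09) for segment 3. For segments 1 and 2 it was 3.66-fold and 2.83-fold. In the last bin, chr9:134140001-134160000, segment 5 reached 2510. A second step lay inside the segment, at chr9:134080001-134100000, where contacts with the chromosome 13 window went from 11841 to 16838 per bin while contacts over expected with 22q11 went from 194 to 87.1. The step was found at the same bin in 7 of 8 libraries.

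**Figure D2:**
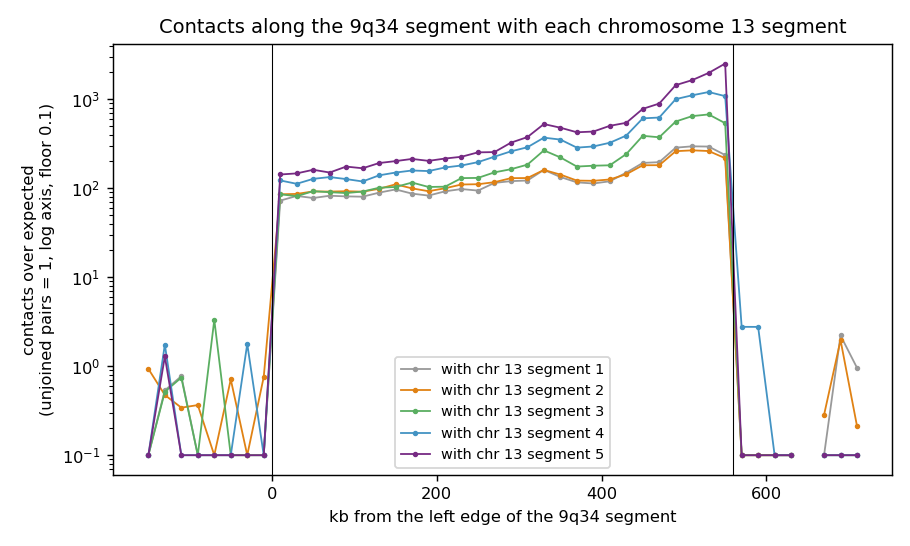
Contacts over expected (vertical log axis, unjoined pairs at 1, floor at 0.1) of each 20 kb bin of the 9q34 segment and its flanks with each of the 5 chromosome 13 segments, by distance in kb from the segment's left edge, in the sum of 8 libraries. All 5 lines rise toward the right edge, segment 5 the most (from 149 to 2049 between the outer 60 kb at each end), and fall at both edges.

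Contacts between the ends of segments, taken as 60 kb at each end, gave the neighbours. The right end of the 9q34 segment had the most contacts over expected with the right end of segment 5 (2740, with 2467 to 3044 in the 8 libraries). The left end of segment 5 had the most with the right end of segment 4 (5127, 4443 to 5896). The left end of segment 4 had the most with the left end of segment 3 (7147, 6495 to 8346). Each of these 3 choices was mutual, and was mutual in 8 of 8 libraries. The left end of the 9q34 segment and the right end of the 22q11 segment chose each other in the same way (3895, 3484 to 4831). At those ends the second choice was lower by 1.45-fold (segment 5 right) to 25.1-fold (9q34 left).

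Laid end to end, these pairs read 22q11 up to 23.64 Mb, then chromosome 9 from 133.60 to 134.16 Mb, then chromosome 13 from 108.66 back to 108.50 Mb, from 94.04 back to 93.84 Mb, and from 92.94 forward to 93.36 Mb. Segments 5 and 4 thus lie reversed against the reference and segment 3 lies forward. Contacts within this row show which ends have the most contacts, and cannot tell several copies with different neighbours from a single row.

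Contacts were also uneven inside segment 3. Those with segment 4 enter the pairing of ends above and are not independent of it. Its contacts with segment 4 fell from 3621 in its left 60 kb to 1000 in its right 60 kb, and those with segment 5 from 1131 to 601. Its contacts with segments 1 and 2 rose instead, from 554 to 1232 and from 501 to 858. The right-over-left ratio was 2.03 to 2.39 for segment 1 and 0.206 to 0.322 for segment 4 in the 8 libraries. Segments 1 and 2 thus had more contacts over expected with the end of segment 3 that faces away from 9q34 in the row, and contacted its other end as well.

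Segments 1 and 2 met each other at the left end of segment 2. That end stood at 5325 (4522 to 5933) with the left end of segment 1 and at 5000 (4240 to 5544) with its right end, so both ends of segment 1 were about equally rich in contacts with it, and the ranges overlapped. The first was the higher in 6 of 8 libraries and the second in 2. With squares of 100 kb in place of 60 kb the order turned, to 1988 and 3413. Within segment 1 the left 40 kb stood apart. With the left 60 kb of segment 2 they stood at 10833 (9458 to 11652) and the next 40 kb at 823, a 13.2-fold difference between neighbouring 40 kb windows (11.4 to 14.6 in the 8 libraries). Contacts with 9q34 stepped the other way at the same line, from 93.3 to 185, or 1.99-fold (1.64 to 2.301). From there the level was 190 in the first bin and 93.6 in the last bin of segment 1, while the level with all of segment 2 went from 431 to 1064 at chr13:81440001-81460000 and was 847 in the last bin. The line lies at chr13:81120001 and was picked out after the values were seen.

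The right ends of segments 3 and 2 found no clear neighbour. The right end of segment 3 stood at 1244 (1077 to 1544) with the left end of segment 2, at 1233 (1007 to 1401) with the right end of segment 1 and at 1202 (935 to 1409) with the left end of segment 4, and these ranges overlap. The right end of segment 2 stood at 647 (530 to 798) with the right end of segment 3, its highest, and at 508 (385 to 614) with the left end of segment 3. For comparison, the left end of segment 5 and the right end of 9q34, which are not neighbours in the row, stood at 1621 (1331 to 1865).

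**Figure D3:**
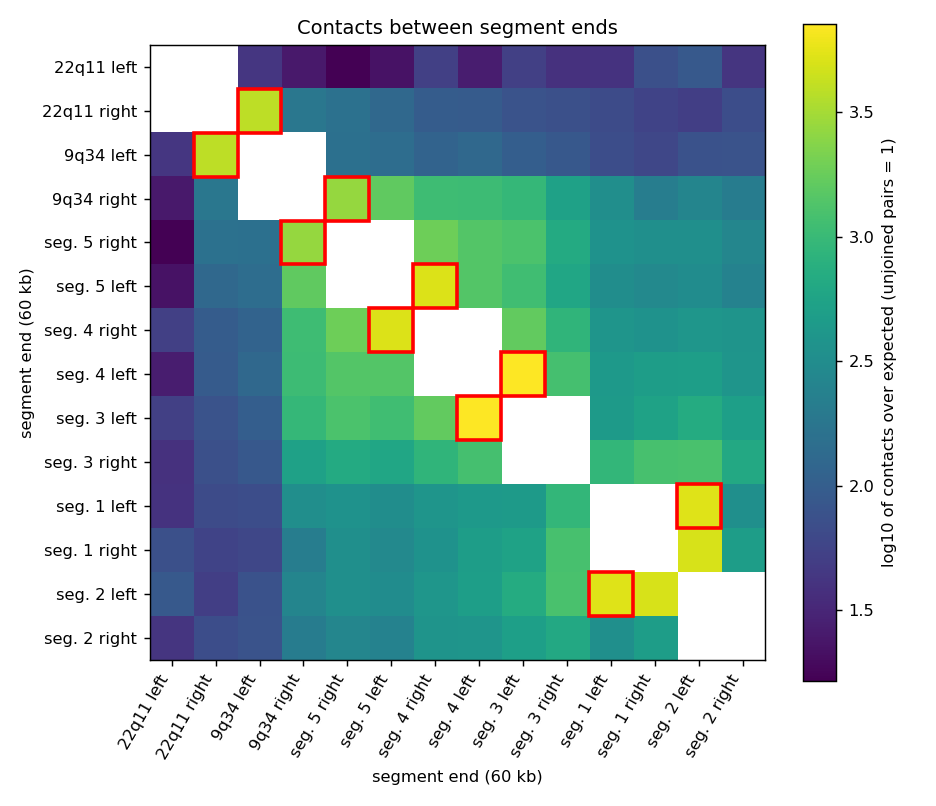
Contacts over expected between 60 kb ends of the segments, as log10 in colour (unjoined pairs at 1), in the sum of 8 libraries, with both axes listing the ends in the order in which they pair. Red frames mark the 5 pairs in which each end has its highest value with the other, from 2740 (9q34 right with segment 5 right) to 7147 (segment 4 left with segment 3 left), and white cells are ends of the same segment.

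The 5 segments also contacted each other beyond the level of their surroundings where they lie far apart on chromosome 13. Segments 4 and 5, separated by 14460 kb, stood at 1932 (1779 to 2096), and the bins beside segment 4 stood at 31.3 with segment 5, a 61.8-fold difference. Segments 3 and 5 stood at 770 against 23.2 for the bins beside segment 3. Segment 1 stood at 764 (684 to 839) with segment 2 against 47.9 for the bins beside segment 1, and at 795 (719 to 887) with segment 3 against 34.8, so its levels with both overlapped. With segments 4 and 5 it stood at 445 against 26.9 and at 339 against 17.1. Segments 2 and 5 stood at 304 against 24.95 for the bins beside segment 2. Segments 2 and 3, which lie 460 kb apart on the reference chromosome, stood at 628, below the 842 of the bins beside segment 2. Segments 2 and 4 stood at 404 against 416. These values are divided by contacts with other chromosomes, which were 7396 per bin in segment 2 and 705 per bin in its flanks. The order of segment 2 and its flanks therefore holds on this scale only, and contacts without the division were not compared. On this scale, contacts along the unbroken chromosome and contacts along a rearranged one cannot be told apart for these pairs. Segments 3 and 4, which lie 480 kb apart, stood at 1508 against 927 for the bins beside segment 3, a 1.63-fold difference, and their left ends (7147) exceeded the ends that face each other on the reference, segment 3 right and segment 4 left (1202).

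Segment 2, the longest, was not uniform. Its 103 bins ranged from 93.1 to 318 with 9q34. Its highest bin was chr13:91660001-91680000 (318), followed by chr13:91500001-91520000 (257) and chr13:92000001-92020000 (252). The first of these was also the highest of the 103 bins with segment 3 (1098), segment 4 (775) and segment 5 (662). At chr13:92000001-92020000 contacts with segment 1 were the lowest of all 103 bins, at 232, while those with 22q11 were the highest, at 77.9. These bins were picked out after the values were seen.

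With 22q11, contacts of the chromosome 13 segments were highest next to the Philadelphia junction. The last 500 kb before the 23.64 Mb edge stood at 86.0 with the 5 segments together (80.3 to 96.3 in the 8 libraries) and the 500 kb before that at 61.3 (57.0 to 71.4). From 1000 to 5000 kb the values lay between 42.5 and 53.8. The stretch 5000 to 6000 kb from the edge, which also had fewer contacts with other chromosomes, was lowest at 22.9 (21.4 to 27.0). The 1000 kb beyond the edge stood at 0.698. Seen from the last 100 kb of 22q11, the ends of segments 5, 4 and 3 were lower the farther out they lie in the row, except that the ends of segment 4 stood the other way round: 140.8 for segment 5 right, 120 for segment 5 left, 86.2 and 93.2 for segment 4 right and left, 80.4 for segment 3 left and 66.0 for segment 3 right. The ends of segments 1 and 2 lay between 51.4 and 64.1. The ranges over libraries of neighbours in this sequence overlap (97.4 to 175 for segment 5 right and 87.1 to 165 for segment 5 left), and each value rests on 63 to 468 contacts.

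When distance was measured along that row, contacts over expected of the 9q34 segment with segments 5, 4 and 3 declined at every step. They stood at 4410 (4006 to 4959) at 20 to 60 kb and at 1014 at 100 to 200 kb. They stood at 389 at 400 to 500 kb and at 95.1 (84.3 to 110) at 1000 to 1200 kb. Contacts of the 22q11 segment with the same 3 segments declined from 132 (114.9 to 149.97) at 580 to 800 kb to 39.3 (32.1 to 51.3) at 2500 to 3000 kb. At 800 to 1000 kb the 9q34 segment stood at 146 (138 to 157) and 22q11 at 116 (98.4 to 127), and these ranges do not overlap. At 1000 to 1200 kb they stood at 95.1 and 102 (92.7 to 113), which overlap. The row was built from the highest of these contacts, so the fall over the shortest distances is not independent of it. The decline at every step also holds on this scale only. Without the division, in CPM (defined below), contacts with 9q34 along the row were uneven between 60 and 160 kb. After 0.25 h of cutting they were 0.267 at 60 kb, 0.316 at 160 kb and 0.0859 at 560 kb. After 12 h they were 0.428, 0.395 and 0.105 at the same distances.

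**Figure D4:**
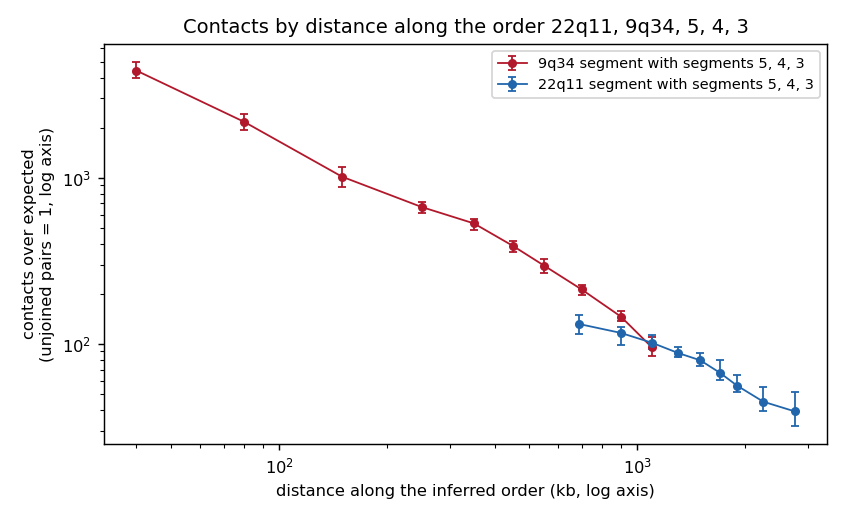
Contacts over expected (log axis, unjoined pairs at 1) by distance in kb (log axis) along the row 22q11, 9q34, segment 5, segment 4, segment 3, for the 9q34 segment (red) and the 22q11 segment (blue) with the 3 chromosome 13 segments. Points are the sum of 8 libraries at the middle of each distance class and bars run from the lowest to the highest library; the red series falls from 4410 to 95.1 and the blue from 132 to 39.3.

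The study varied how long HindIII cut the chromatin, and the joined contacts were followed over those times. Library depth rose with digestion time as well, and its part in the trends below was not tested. Contacts of the 5 segments with 9q34 became more frequent relative to those with 22q11 as digestion went on. In replicates 1 and 2 the ratio of the first to the second was 0.633 and 0.653 after 0.25 h of cutting. It was 0.679 and 0.680 after 1 h, 0.690 and 0.698 after 3 h, then 0.796 and 0.779 after 12 h. No time overlapped another, and the mean at 12 h was 1.23 times that at 0.25 h. This ratio needs no library total. It was chosen after the values were seen. Spearman's rho between the ratio and the log2 of the hours was 0.98 over the 8 libraries (two-sided exact permutation p = 0.000794, the smallest that 2520 arrangements can give, and 0.00238 adjusted over 6 ratios). Pearson's r came to 0.94 (exact permutation p = 0.000794). With the 12 h libraries left out r was 0.94 and with those of 0.25 h left out, which lie as far from the median time, it was also 0.94 (exact permutation p = 0.0111 each, n = 6). The ratio rose in each of the 5 segments, with adjusted exact permutation p between 0.00238 (segment 3) and 0.0198 (segment 5). On the deposited balanced signal segments 1 and 4 did not pass (exact permutation p = 0.0548 and 0.0825). In the shallower first run rho was again 0.98 for the 5 segments together and 0.88 for segment 3 (exact permutation p = 0.000794 and 0.0103), but the other 4 segments did not pass there, and segment 5 stood at -0.10 (exact permutation p = 0.861).

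Scaled to CPM (contacts per 1000000 contacts of the library), joined contacts with 9q34 were 216 and 206 after 0.25 h. They were 224 and 222 after 1 h, 222 and 230 after 3 h, then 256 and 264 after 12 h. The 12 h libraries were above all others. The Spearman correlation with time was 0.88 (exact permutation p = 0.0103, or 0.0248 adjusted over 12 trends) and Pearson's r 0.91 (exact permutation p = 0.00238), with r of 0.83 without 12 h and 0.91 without 0.25 h. The rise was 23.5% from 0.25 to 12 h, and 37.2% for segment 5, the segment next to 9q34 (29.7 ± 1.32 to 40.8 ± 0.153 CPM, SD, n = 2 each; adjusted exact permutation p = 0.0190). Segments 2, 3 and 4 rose by 20.5% to 22.1%. Segment 1 was higher by 16.7% and did not pass (adjusted exact permutation p = 0.0698). All contacts between chromosomes moved the same way, from 97496 CPM at 0.25 h to 119573 at 12 h, and unjoined contacts of the same windows went from 2.61 to 3.35 CPM, both with a correlation of 0.93 (exact permutation p = 0.00317). The share of contacts inside 1 bin went from 22.3% to 11.6%, and its part in these trends was not tested beyond leaving it out. The rise with 9q34 did not pass when contacts inside 1 bin were left out of the total (exact permutation p = 0.0825) or on the deposited balanced signal (exact permutation p = 0.0548). For single segments with 9q34 the direction turned over the segments' contacts with other chromosomes in segments 1, 2, 3 and 4. On the balanced signal it turned in segments 1 and 3.

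In CPM, contacts of all segments together with 22q11 followed no such course. They were 342 and 315 after 0.25 h, 329 and 327 after 1 h, 322 and 330 after 3 h, then 322 and 339 after 12 h. The 0.25 h libraries were both the highest and the lowest. The correlation was 0.05 (exact permutation p = 0.946) and Pearson's r 0.06 (exact permutation p = 0.876). This depends on the total: without contacts inside 1 bin, and on the balanced signal, the correlation was -0.98 (exact permutation p = 0.000794 each). In CPM the single segments differed in direction. From 0.25 to 12 h, segment 5 with 22q11 changed by 17.9% and segment 4 by 6.66%. Segments 1, 2 and 3 changed by -2.80%, -0.216% and -4.39%. None passed (adjusted exact permutation p from 0.189 to 0.946). For segment 5 Pearson's r was 0.77 (exact permutation p = 0.0238, not adjusted).

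As a share of all contacts between chromosomes, 22q11 fell and 9q34 showed no trend. Joined contacts with 22q11 were 3541 and 3201 trans CPM (contacts per 1000000 contacts between chromosomes) after 0.25 h. They were 3228 and 3138 after 1 h, 3118 and 3081 after 3 h, then 2709 and 2822 after 12 h. The values at 12 h were below all others. The correlation was -0.93 (exact permutation p = 0.00317, adjusted 0.0190) and Pearson's r -0.90 (exact permutation p = 0.00238), with r of -0.73 without 12 h and -0.94 without 0.25 h, and the share fell by 17.96% from 0.25 to 12 h. The fall passed the adjusted threshold for segment 3 (459 ± 24.5 to 358 ± 12.2, SD, n = 2 each), segment 1 and segment 2, and did not for segment 4 (adjusted exact permutation p = 0.110) or segment 5 (adjusted exact permutation p = 0.770). Contacts with 9q34 made up 2240 and 2088 trans CPM at 0.25 h and 2156 and 2199 at 12 h, with a correlation of 0.20 (exact permutation p = 0.672). Segment 5 was called on this scale: its share with 9q34 went from 305 ± 17.8 at 0.25 h to 341 ± 1.35 at 12 h (SD, n = 2 each), a correlation of 0.83 (exact permutation p = 0.0198, adjusted 0.0476). The call was lost without 0.25 h replicate 2 (rho 0.77, exact permutation p = 0.0540) and without either 12 h library (rho 0.75, exact permutation p = 0.0667 each). The first run gave 0.54 there (exact permutation p = 0.190). Segment 1 with 9q34 went the other way and did not pass, from 212 ± 13.3 to 202 ± 0.124 trans CPM (SD, n = 2 each). Its correlation was -0.68 (adjusted exact permutation p = 0.141), and -0.97 to -0.53 with 1 library left out. Segments 2, 3 and 4 with 9q34 did not pass. In the first run segment 2 with 9q34 fell, with a correlation of -0.83 (exact permutation p = 0.0198, not adjusted).

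**Figure D5:**
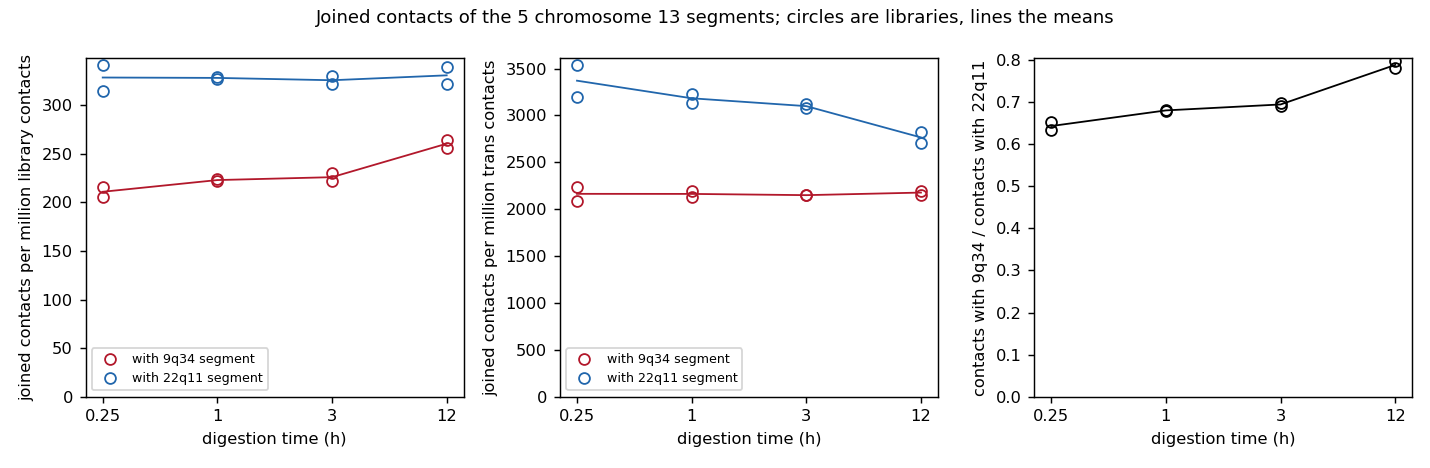
Joined contacts of the 5 chromosome 13 segments by digestion time (hours), as CPM (left), as trans CPM (middle) and as the ratio of contacts with 9q34 to contacts with 22q11 (right); all vertical axes start at 0. Circles are the 8 libraries and lines join the means of 2; red is 9q34 and blue is 22q11. In CPM 9q34 goes from 211 to 260, in trans CPM 22q11 goes from 3371 to 2766, and the ratio goes from 0.643 to 0.788.

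In blocks of 500 kb, 0.25 h was set against 12 h over all 14834 pairs of blocks on different chromosomes with at least 80 contacts. Of 1540 block pairs between chromosome 13 and 9q34, 22 had that many contacts, and of 1400 with 22q11, 156. The filter uses the sum over times, and these are the blocks that hold the segments. With 9q34, 10 of 22 were called higher at 12 h and 0 higher at 0.25 h by limma on CPM at a Benjamini-Hochberg adjusted threshold of 0.05. Of all pairs tested, 1.51% were called, 0.485% higher at 12 h and 1.02% higher at 0.25 h. Leaving out 1 library gave 4 calls (without 1 h replicate 1, 1 h replicate 2, 3 h replicate 2 or 12 h replicate 2) to 14 (without 0.25 h replicate 1). All 22 estimates were below 0, with a median log2 difference (0.25 h minus 12 h) of -0.26, next to -0.28 over all pairs tested. With only the 0.25 and 12 h libraries in the fit, limma called 0 of the 22 and 0 of all pairs. The 22 hold 1125 to 23038 contacts each, with a median of 10590, against 114 over all pairs tested. Calls were more frequent among deeper pairs: of the 786 pairs with at least 400 contacts, limma called 25.2%, with 14.8% higher at 12 h, and among them were 16 of 22 with 9q34 and 11 of 117 with 22q11. In trans CPM the median over all pairs was 0.01 and that of the 22 was 0.04, and 1 of the 22 was called. With 22q11, 1 of 156 was called higher at 0.25 h and 4 higher at 12 h, with a median of 0.02, and 1 to 11 were called with 1 library left out (11 without 0.25 h replicate 1). In trans CPM that median was 0.31, with 25 of 156 called higher at 0.25 h, where 1.72% of all pairs were, and 1 higher at 12 h, where 0.0674% were. The 156 pairs are also deeper, with a median of 995.5 contacts against 114 over all pairs tested. No share among pairs of like depth was taken in trans CPM. Leaving chromosomes Y and M out of the table, a choice made after seeing the data, gave 15 of 22 and 8 of 156 called (1.53% of all pairs higher at 12 h and 1.49% higher at 0.25 h) and, in trans CPM, 40 of 156 higher at 0.25 h (2.61% of all pairs).

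The 3 block pairs with the most contacts all joined chr9:134000001-134500000. With the block of segment 5 (chr13:108500001-109000000) there were 23038 contacts, 20.5 CPM at 0.25 h and 26.9 at 12 h, a log2 difference (0.25 h minus 12 h) of -0.39 ± 0.060 (SE; limma, adjusted p = 0.00373). With the block of most of segment 4 (chr13:93500001-94000000) there were 20161, and with that of most of segment 3 (chr13:93000001-93500000) 19415, with differences of -0.25 and -0.32 (adjusted p = 0.0225 and 0.0101 by limma). With 1 library left out these differences ranged from -0.28 to -0.22 and from -0.38 to -0.25. Neither pair kept its call with each library left out in turn. In trans CPM these 3 were -0.10, 0.04 and -0.02, and not called. Among the called pairs, the largest differences toward 12 h were those of segment 5 with chr22:23500001-24000000, which holds the end of 22q11 (-0.83 ± 0.11, adjusted p = 0.00136 by limma; 1.38 to 2.46 CPM), and with chr9:133500001-134000000 (-0.59 ± 0.067, adjusted p = 0.000499 by limma; 9.23 to 13.9 CPM). The next, chr13:94000001-94500000 with chr9:133500001-134000000, was -0.58 ± 0.13 (adjusted p = 0.0473 by limma, from 0.0441 to 0.288 with 1 library left out). The pairs with segment 5 kept their direction and their call in trans CPM, at -0.53 and -0.30, and with each library left out in turn. The only member called higher at 0.25 h joined chr13:93000001-93500000 with chr22:22000001-22500000 (0.39 ± 0.086, adjusted p = 0.0405 by limma; 4.09 to 3.12 CPM), and it was not called when any single library was left out (adjusted p from 0.0551 to 0.201).

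The slope of contacts with distance from the junction of 9q34 and segment 5 showed no trend past the threshold with digestion. Between 40 and 160 kb, the length of segment 5, the slope of log10 contacts on log10 distance was -0.185 ± 0.059 after 0.25 h of cutting and -0.246 ± 0.029 after 12 h, with -0.176 ± 0.19 and -0.160 ± 0.020 after 1 and 3 h (SD, n = 2 each). From 100 to 160 kb alone the slope was above 0 in 7 of 8 libraries, with means of 0.227, 0.437, 0.129 and 0.152 after 0.25, 1, 3 and 12 h. Over 40 to 160 kb the times overlapped, and the correlation with time was -0.24 (exact permutation p = 0.586, n = 8). Over the same distances chromosome 13 itself had slopes from -0.942 to -0.895. On the balanced signal the junction slopes were steeper, between -0.932 and -0.625, so the slope depends on whether the signal is balanced. With segments 5, 4 and 3 laid end to end and distances up to 560 kb, the slope was -0.591 ± 0.032 at 0.25 h and -0.639 ± 0.038 at 12 h (correlation -0.44, exact permutation p = 0.300). With the replicate number as a block, exact permutation within replicates gave p = 0.0243 for that slope.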

How the data were processed

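Per the submitters' processing notes, HiC-Pro 2.11.1 and Bowtie2 2.3.4.1 were used on build hg19. Each deposited file lists pairs of bins with a balanced contact signal made by the authors. Each signal was turned back into a whole number of contacts, and all values of the 16 files came within 0.01 of a whole number. Libraries of the second run had 62777251 to 176412222 contacts. PCR reads without molecular identifiers are not independent molecules. Bins needed 100 contacts with chromosomes other than 9, 13 and 22. Edges were lines with a step of at least 2 times between windows of 5 bins, the largest within 10 bins, where the higher window held at least 100 contacts. This minimum, the move of a line by up to 3 bins to the largest step between neighbours, and the end-to-end comparison were added after seeing the data. Trends used exact two-sided permutation of times over 8 libraries, Benjamini-Hochberg adjusted over 12 trends. Block pairs were tested with limma 3.58.1 (R 4.3.3) with a mean-variance trend, on log2 CPM with 0.5 added to each count, over all 4 times together. All edges and segment pairs are named, with the 3 block pairs of most contacts and the 3 largest called changes each way. Scripts for recovery, edges and limma were tested on simulated data. The windows and comparisons were chosen with earlier results of these data known. Alternatives are in the closing section.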

Additional observations from a re-analysis of the deposited data

Results flagged for a closer look

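Contacts of the chromosome 13 segments with blocks on other chromosomes, which enter the values above only summed, as part of the contacts with other chromosomes, stood out where a 500 kb block took at least 10 times the median share over 5208 blocks and at least 1000 contacts. All 5 segments did so with chr1:142500001-143000000: segment 1 with 9460 contacts (78.6 times the median block), segment 2 with 16734 (29.7 times), segment 3 with 4087 (28.7 times), segment 4 with 2321 (21.4 times) and segment 5 with 1952 (28.0 times). Within segment 1, contacts with chromosome 1 were highest per contact with other chromosomes in the 60 kb that follow the inner line (19.1% of them, against 11.2% before it and 10.9% in the last 60 kb). With chr3:75500001-76000000, segment 3 had 1390 contacts (41.2 times) and segment 2 had 2413 (18.03 times). Segment 2 also had 1013 contacts with chr14:19000001-19500000 (10.2 times). With chromosomes 1 and 3 left out of the expected level, a setting added after seeing the data, the same 5 mutual end pairs were found. No cause was tested for any of these.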

How the results depend on the processing

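Without the minimum of 100 contacts the edge rule gave 90 lines with 9q34 and 61 with 22q11, which include the 10 reported ones. Every other setting of the edge rule gave 10 to 15 lines, and with 1 library left out 10 lines and 5 mutual end pairs were counted each time. Before lines were moved to the sharpest bin, 8 to 10 of the 10 lines with 9q34 then lay within 1 bin of those reported (8 without 3 h replicate 1), and all 10 with 22q11. Windows of 3 bins kept 8 with 9q34 and 10 with 22q11. The rise of 9q34 in CPM (rho 0.83 to 0.97 with 1 library left out) was 0.73 on the balanced signal, 0.68 without contacts inside 1 bin and 0.44 over the segments' contacts with other chromosomes, none past the threshold. For 22q11 (-0.31 to 0.46) those 3 settings gave -0.98 each. In trans CPM, 9q34 ranged from -0.092 to 0.68 and was -0.15 in the first run, and 22q11 ranged from -0.97 to -0.90. The ratio of 9q34 to 22q11 gave 0.97 with any library left out. The Spearman correlation of the 40 to 160 kb slope with time ranged from -0.48 to -0.02 with 1 library left out and was 0.63 in the first run, over 3 distances. The cause of these changes was not tested. For single segments in CPM, the sign turned over the segments' other contacts for 9q34 in segments 1 (-0.93), 2 (-0.29), 3 (-0.73) and 4 (-0.78), and for 22q11 in segments 4 (-0.93) and 5 (-0.73). It turned on the balanced signal for 9q34 in segments 1 and 3 (-0.29 each) and for 22q11 in segments 4 (-0.63) and 5 (-0.49), and without contacts inside 1 bin for 22q11 in segment 4 (-0.63). In the first run it turned for 22q11 in segment 2 (0.24) and, in trans CPM, for 9q34 in segment 3 (0.34) and 22q11 in segment 5 (0.20). That run also gave stronger correlations in CPM for 22q11 in segments 3 (-0.93, exact permutation p = 0.00317) and 4 (0.88, exact permutation p = 0.0103). In trans CPM it did so for 9q34 in segment 2 (-0.83, exact permutation p = 0.0198). With 1 library left out, 22q11 ranged from -0.61 to 0.17 in segment 1 and from -0.46 to 0.31 in segment 2. In trans CPM, 9q34 so ranged from -0.46 to 0.31 in segment 2 and from -0.68 to 0.092 in segment 3.

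Of all block pairs, limma called 224 of 14834 (1.51%) in the fit reported, 125 of 64607 (0.193%) with a minimum of 40 contacts, 198 of 786 (25.2%) with 400, 139 of 87329 (0.159%) in 1 Mb blocks, 398 of 13196 (3.02%) without chromosomes Y and M, 265 of 14834 (1.79%) in trans CPM, 99 of 530 (18.7%) in the first run and 108 to 462 of 14834 with 1 library left out. The 10 calls of 22 pairs with 9q34 became 1 of 22 in trans CPM, 16 of 22 with a minimum of 400 contacts, 5 of 22 in the first run and 4 to 14 of 22 with 1 library left out. The 5 calls of 156 pairs with 22q11 became 26 of 156 in trans CPM, 1 of 180 with a minimum of 40, 11 of 117 (9.40%) with 400, 1 of 76 in 1 Mb blocks, 8 of 156 without Y and M and 1 to 11 of 156 with 1 library left out. With the 0.25 and 12 h libraries alone limma called 0 of all pairs and 0 of either set, and 1460 of all, 17 with 9q34 and 22 with 22q11 had an unadjusted p under 0.05. The pair of chr13:93500001-94000000 with chr9:134000001-134500000 turned to 0.043 in trans CPM. Deviations of same-numbered replicates correlated at 0.44 between 3 and 12 h, 0.16 between 1 and 12 h and 0.09 between 1 and 3 h, and at -0.53 to -0.09 between 0.25 h and the others, so not every pair of times passed 0.1 and the numbers were not taken to pair the libraries. A replicate block gave p = 0.0208 for 9q34 and 0.931 for 22q11 in CPM, and 0.656 and 0.00347 in trans CPM (exact permutation), 221 calls of all pairs, 7 with 9q34 and 2 with 22q11. It brought the slope over segments 5, 4 and 3 below 0.05 (exact permutation p = 0.0243, and 0.0174 after subtracting that of chromosome 13), while the slope over 40 to 160 kb gave an exact permutation p = 0.601. The unjoined level rests on 167 to 573 contacts a library, which limits the precision of contacts over expected.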
